A study of Arabidopsis thaliana with 9 samples.

Results

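The probe sets described here are those that stood at a similar distance from wild type in both transgenic genotypes of an Arabidopsis thaliana seedling study. They were chosen from the signals of all 9 arrays. A probe set was a member where all 6 SPL13 and mSPL13 signals lay above, or all below, all 3 Col-0 signals, where the SPL13 mean and the mSPL13 mean each differed at least 1.3-fold from the Col-0 mean, where those 2 means were within 25% of each other (larger over smaller), and where the highest group mean was at least 200. Of the 22810 probe sets on the array, 22646 remained without the control probe sets and those assigned to organelle genomes, and 86 of them were members. In both transgenics 39 were higher than in Col-0 (0.172% of 22646) and 47 were lower (0.208%). The choice used every contrast among the 3 genotypes, so the members' levels are a description and carry no test.

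RNA came from whole seedlings, 3 arrays per genotype, grown for 3 days in the light at 22 °C on medium with 1% sucrose after 3 days in the cold and dark. Col-0 is the untransformed wild type. SPL13 is Col-0 transformed with the non-mutated SPL13 gene driven by its native promoter, and mSPL13 is Col-0 transformed with the mutant gene, resistant to microRNA156, driven by the same promoter. The labels call the arrays of a genotype biological replicates and name 3 seed lots for each genotype. The transformation itself, and whatever else the transgenic seed shares, cannot be told apart here from the transgene. The sources used here do not say which transgenic lines, or how many, were grown.

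SPL proteins are plant transcription factors that promote the change from juvenile to adult growth and flowering. In young seedlings microRNA156 is abundant and lowers the transcripts of many SPL genes, and a resistant form escapes this. A non-mutated transgene remains subject to the microRNA, so the comparison of both forms with untransformed seedlings asks which transcripts stand apart from wild type whichever form is carried.

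Array medians of the signal lay from 176.0 to 191.6, and log2 signals of any pair of arrays correlated at 0.959 to 0.988 across 13647 probe sets. Genes taken as markers of leaf tissue were RCA, PRK and LHCB4.2, with means of 10859 to 23620. Those taken for roots were PYK10, NAI2, EXPA7 and EXPA18 (701.3 to 20253). All were measured in every genotype, and none was checked here for expression in that tissue only. Of the genes taken for roots, NAI2 (5724, 5423 and 3595) and EXPA18 (1289, 1015 and 903.8) had their highest means in Col-0. Their lowest were in mSPL13, in the order Col-0, SPL13 and mSPL13. In the same order, PYK10 (20253, 18794 and 19264) and EXPA7 (862.2, 701.3 and 805.8) were highest in Col-0 too, but lowest in SPL13. The ratio of 3′ to 5′ signal of the GAPDH control, a sign of RNA quality, ranged from 0.835 to 0.952 in Col-0 and from 0.791 to 1.102 in the transgenics. The ubiquitin ratio ranged from 2.08 to 2.40 and from 1.83 to 2.85. The actin ratio was far higher and more variable, from 8.86 to 20.3 in Col-0 and from 12.4 to 33.0 in the transgenics, with the highest values in SPL13 replicate 1 (33.0) and mSPL13 replicate 1 (28.8). Chloroplast-encoded transcripts were low in the SPL13 arrays, with medians of -2.45, -1.01 and -0.83 (log2, relative to the Col-0 mean), against -0.03 to 0.30 in mSPL13 and -0.30 to 0.19 in Col-0. The part of these differences in the members' levels was not tested. In bulk RNA, fewer cells of a type and less RNA per cell cannot be told apart.

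Col-0 replicate 3 lay nearer to the transgenic arrays than the other wild-type arrays did, and nearest to the SPL13 arrays. Its log2 signals correlated at a mean of 0.984 with the SPL13 arrays and at 0.977 with the other Col-0 arrays, and at 0.972 with the mSPL13 arrays. For Col-0 replicate 1 these were 0.968, 0.978 and 0.962, and for Col-0 replicate 2 0.974, 0.980 and 0.965. In 62 of the 86 members Col-0 replicate 3 was the Col-0 array nearest to the transgenics. This was so for 74.4% of the higher members and 70.2% of the lower members. Over all 22646 probe sets the shares were 42.7% where the transgenic means lay above Col-0 and 42.4% where they lay below. They were 50.7% and 54.5% over all non-overlapping probe sets, and 73.7% and 72.9% over those that met non-overlap, fold and floor, whether or not the transgenic means were close. Without this array, 321 probe sets met the rule as higher and 232 as lower, and they held 38 of the 39 and 45 of the 47 members. Without Col-0 replicate 1, 53 probe sets met it as higher and 55 as lower, with only 25 higher and 32 lower members among them. Without Col-0 replicate 2 the totals were 58 and 74, with 25 and 40 members. The cause of the position of Col-0 replicate 3 was not tested.

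**Figure D1:**
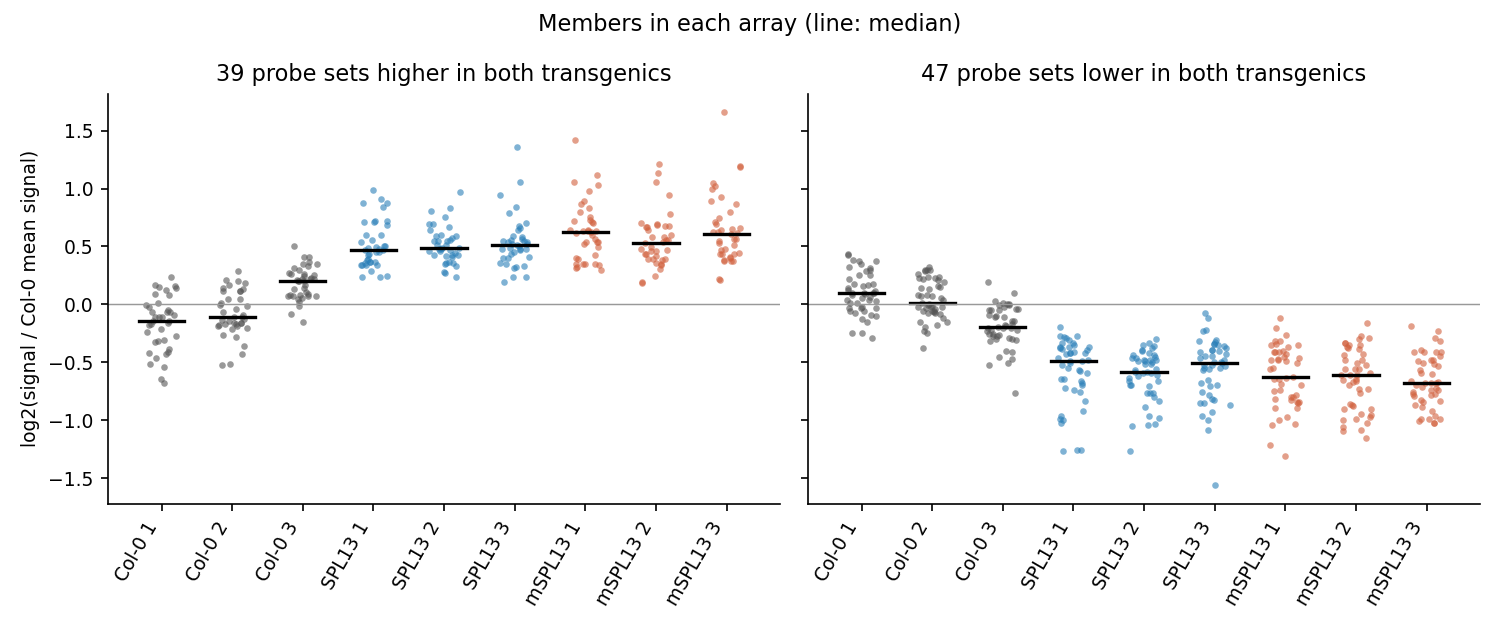
Signal of each member in each array, as log2 of the signal over the Col-0 mean signal, for the 39 higher members (left) and the 47 lower members (right). Points are probe sets and lines are medians. Among the Col-0 arrays the third is closest to the transgenics, with medians of 0.20 and -0.19.

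The members differed from wild type by modest amounts. Among the higher members the median ratio to Col-0 was 1.39 in SPL13 and 1.47 in mSPL13, and the highest ratios were 2.12 and 2.64. Among the lower members the Col-0 mean was a median of 1.47 times the SPL13 mean and 1.54 times the mSPL13 mean, and at most 2.39 and 2.17 times. In both transgenics 9 higher and 12 lower members differed at least 1.5-fold. Only 1 in each direction differed at least 2-fold in both. Both ratios of a probe set share the same 3 Col-0 arrays, so they also share those arrays' error.

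The gap between the groups was narrow for most members. The nearest transgenic and Col-0 signals were a median of 1.066-fold apart for the higher members and 1.097-fold for the lower, and under 1.1-fold apart for 48 of the 86. The Col-0 arrays also varied more than the transgenic arrays at these probe sets. For the higher members the median coefficient of variation was 17.0% (Col-0), 9.47% (SPL13) and 10.5% (mSPL13), and for the lower members 15.7%, 13.1% and 13.3%. Over the 11487 tested probe sets at the same signal floor it was 11.8%, 9.62% and 10.6%.

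Non-overlap, the fold threshold, the floor and closeness were applied in this order, and the number each removed depends on that order. All 6 transgenic arrays lay above all Col-0 arrays for 424 probe sets (1.87% of 22646) and below for 363 (1.6%). With the fold threshold and the floor, 57 and 70 were left, and 39 and 47 of these also met closeness. The 18 higher and 23 lower probe sets that then failed on closeness were all farther from Col-0 in mSPL13 than in SPL13, and 0 were farther in SPL13. Within the members themselves mSPL13 was the farther genotype in 31 of 39 (79.5%) and 31 of 47 (66.0%). Over all non-overlapping probe sets the shares were 72.4% and 69.4%, and over all probe sets on each side of Col-0 58.1% and 56.7%.

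**Figure D2:**
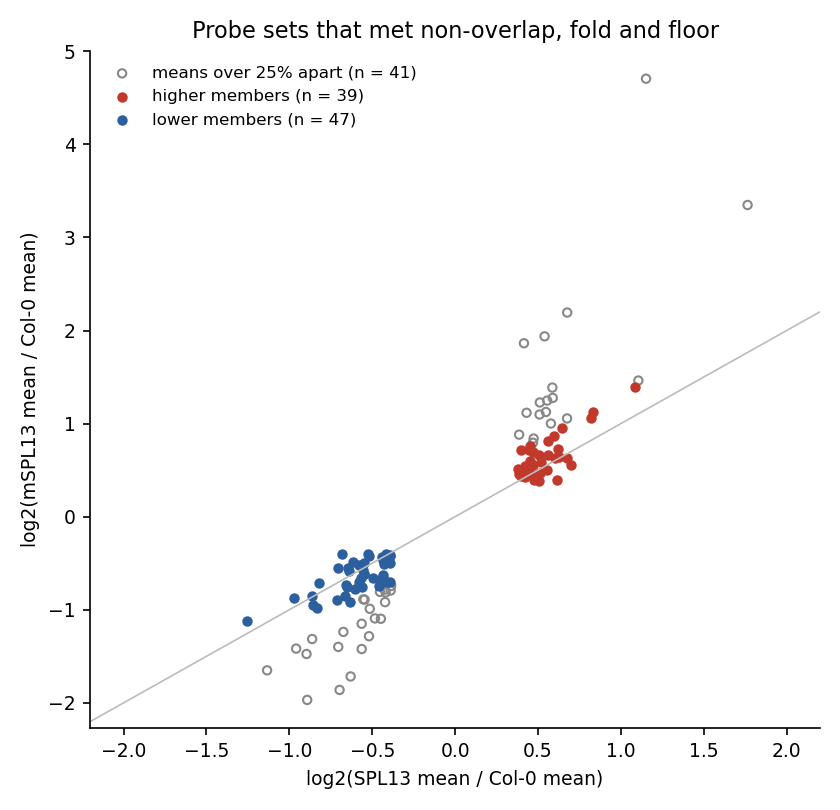
Log2 ratio of the SPL13 mean (horizontal axis) and of the mSPL13 mean (vertical axis) to the Col-0 mean, for the probe sets that met non-overlap, fold and floor. Filled points are the 39 higher and 47 lower members, open points the 41 whose transgenic means were over 25% apart, and the line marks equal ratios. All 41 open points lie on the mSPL13 side of the line.

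Gene names covered only part of the members. Of the higher members 18 pair with 1 gene, 1 with several and 20 with none listed, and of the lower members 29 pair with 1 gene and 18 with none. The share with no gene listed was 44.2%, against 38.3% of all probe sets. The 47 one-gene members lie on chromosomes 1 to 5 as 15, 4, 9, 5 and 14 genes. The same order over all probe sets of 1 nuclear gene is 25.8%, 16.5%, 20.5%, 14.7% and 22.5%, and over these members 31.9%, 8.5%, 19.1%, 10.6% and 29.8%. No pair of member genes was adjacent. The closest pair, with 6 annotated genes between them, was AT1G19310 (higher) and AT1G19380 (lower).

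Known light signalling regulators were among the lower members. Grouping by protein type, here and below, is for reading only. The share of each type over all probe sets was not counted, so nothing is read from these groups. AFR (AT2G24540), an F-box protein with Kelch repeats that acts in far-red light responses through phytochrome A, had signals of 589.0, 494.3 and 435.1 in the Col-0 arrays, 259.2, 256.3 and 259.1 in SPL13, and 257.6, 254.7 and 317.0 in mSPL13. Its Col-0 mean was 1.96 times the SPL13 mean and 1.83 times the mSPL13 mean. The gap of 1.37-fold between the lowest Col-0 and the highest transgenic signal was the widest of the lower members, and 5 of the 6 transgenic signals lay within a few units of each other. HYH (AT3G17609) is the bZIP factor closest to HY5 and a promoter of light-dependent development. Its signals were 493.8, 431.2 and 384.9 in Col-0, 361.1, 313.1 and 253.3 in SPL13, and 328.5, 279.8 and 220.0 in mSPL13. Its groups were separated by 1.07-fold only, between Col-0 replicate 3 and SPL13 replicate 1.

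The lower member with the largest ratio was AT1G20070, of a function not given here. Its signals were 929.4, 795.6 and 420.1 in Col-0, 359.2, 296.8 and 242.3 in SPL13, and 289.3, 343.9 and 356.4 in mSPL13. The Col-0 arrays spread widely, and Col-0 replicate 3 lay 1.17-fold above the highest transgenic signal. The pectin lyase-like protein AT3G61490, of a family that acts on cell wall pectin, had 634.8, 765.2 and 543.3 in Col-0, 270.7, 439.0 and 360.0 in SPL13, and 349.2, 408.1 and 318.4 in mSPL13. For this gene the groups were 1.24-fold apart. AT5G56850 had a gap of 1.23-fold, from 363.3 to 401.0 in Col-0 to 217.9 to 296.0 in the transgenics, with little spread in Col-0.

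Several lower members encode secreted or surface proteins. AT5G48540, a secreted relative of receptor-like kinases, had 663.7, 382.1 and 438.1 in Col-0, 328.4, 305.8 and 303.0 in SPL13, and 275.3, 264.3 and 279.9 in mSPL13. Here the transgenic arrays lay close together and the Col-0 arrays did not. The legume lectin-like AT1G53070 had a Col-0 mean 1.33 times the SPL13 mean and 1.62 times the mSPL13 mean. The aspartyl protease AT5G07030 went from a mean of 1685 in Col-0 to 1099 in SPL13 and 1204 in mSPL13. Its Col-0 replicate 1 (2103) was well above the other Col-0 arrays (1516 and 1435), and mSPL13 replicate 2 reached 1371. The TRAF-like AT5G26260 was the brightest of the named members, with means of 3252 (Col-0), 2411 (SPL13) and 2280 (mSPL13).

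Other lower members have roles in hormone conjugation or are named for senescence. AT1G48660, of the GH3 family that joins amino acids to hormones such as auxin, had 445.5, 513.6 and 349.8 in Col-0, 311.6, 281.4 and 238.5 in SPL13, and 259.8, 303.2 and 214.6 in mSPL13. AT1G11700 and AT3G45210, of a plant family annotated as senescence regulators, both lay lower in the transgenics. The first had a Col-0 mean 1.49 and 1.63 times those of SPL13 and mSPL13, but its Col-0 replicate 3 (177.4) stood only 1.01-fold above SPL13 replicate 2 (175.0). For the second both multiples were between 1.35 and 1.36. YLS5 (AT2G38860), a DJ-1-type protein first described from yellowing leaves, had means of 671.3 (Col-0), 510.7 (SPL13) and 503.6 (mSPL13).

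Enzymes of metabolism were also found among the lower members. CYP84A4 (AT5G04330), a cytochrome P450 that makes pyrone compounds from phenylpropanoids, had 331.7, 401.9 and 299.0 in Col-0, 169.4, 202.2 and 262.1 in SPL13, and 221.2, 243.1 and 242.5 in mSPL13. Here SPL13 replicate 3 was the transgenic array nearest to Col-0, at 1.14-fold. The thiol-disulfide oxidoreductase-like AT5G50100 had means of 256.4 (Col-0), 174.9 (SPL13) and 167.7 (mSPL13), and the zinc-binding dehydrogenase-like AT5G16980 had 249.4, 170.7 and 162.3. Both are dim, with transgenic signals below the floor of 200. The acyltransferase-like AT3G50300 had means of 286.1 (Col-0), 214.5 (SPL13) and 217.1 (mSPL13), with a gap of 1.06-fold. The sugar isomerase-like AT5G52190 varied widely within each transgenic genotype. Its signals were 168.0, 294.0 and 309.3 in SPL13 and 196.6, 296.0 and 328.8 in mSPL13, against 367.4, 492.3 and 345.0 in Col-0.

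Further lower members act in organelle RNA splicing or protein folding. CFM3B (AT4G14510), of the CRM family of splicing factors for organelle introns, had a Col-0 mean 1.43 times the SPL13 mean and 1.34 times the mSPL13 mean. The cyclophilin-like AT1G74070, a peptidyl-prolyl isomerase of the kind found in chloroplasts, had 430.3, 488.8 and 396.0 in Col-0 and 298.4 to 340.4 in the transgenics, a gap of 1.16-fold. The DnaJ-domain protein AT1G72070, a co-chaperone type, had a Col-0 mean of 605.5, an SPL13 mean of 413.5 and an mSPL13 mean of 427.8. The heavy metal-binding AT5G50740 met the rule in 1 of its 2 probe sets. The member probe set had means of 331.0 (Col-0), 252.1 (SPL13) and 203.9 (mSPL13), while the other had ratios to Col-0 of 0.95 and 0.89 and overlapping signals, so the gene's own shift is uncertain.

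**Figure D3:**
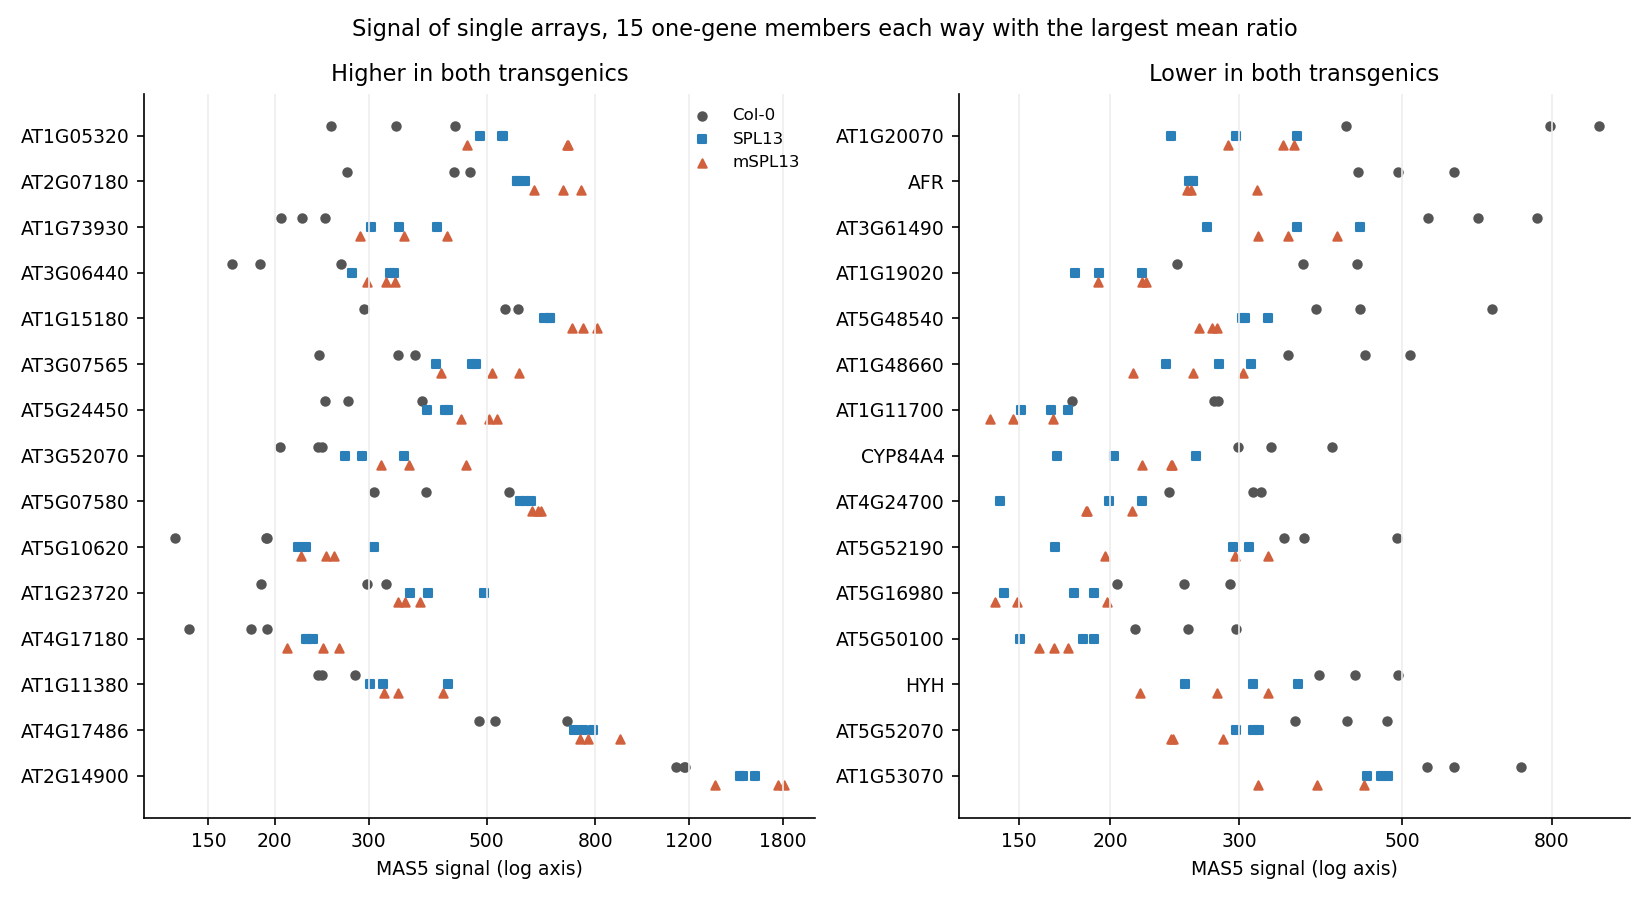
MAS5 signal of each array on a log axis for the 15 one-gene members with the largest mean ratio in each direction, with genes as rows. Circles are Col-0, squares SPL13 and triangles mSPL13. AFR is set apart by 1.37-fold, while AT1G11700 on the lower side and AT5G24450 on the higher side have gaps of 1.01-fold and 1.02-fold.

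The named higher members were led by AT1G05320, of a function not given here. Its signals were 338.1, 255.0 and 436.8 in Col-0, 485.8, 535.5 and 537.3 in SPL13, and 712.3, 459.8 and 708.9 in mSPL13. Replicate 2 of mSPL13 lay below all SPL13 arrays and 1.05-fold above Col-0 replicate 3. The protein kinase AT2G07180 had 433.6, 272.7 and 465.1 in Col-0, 590.6, 569.8 and 570.7 in SPL13, and 696.2, 752.1 and 614.9 in mSPL13. Its gap of 1.23-fold was the widest of the named higher members, and every mSPL13 signal was above every SPL13 signal. AT1G73930 followed in gap, with 205.1, 225.1 and 248.8 in Col-0 and 288.9 to 420.5 in the transgenics.

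Proteins linked to the cell wall and a sugar-transferring enzyme were among the higher members, while the pectin lyase-like AT3G61490 was among the lower. AT3G06440, a galactosyltransferase family protein, had 166.0, 187.4 and 266.7 in Col-0, 279.1, 335.0 and 329.4 in SPL13, and 336.7, 298.4 and 324.2 in mSPL13. Col-0 replicate 3 again lay next to the transgenics, 1.05-fold below the lowest of them. The glycosyl hydrolase family 17 protein AT4G17180, of the family of β-1,3-glucanases, had means of 170.5 (Col-0), 231.5 (SPL13) and 240.4 (mSPL13). The extensin-like AT1G23720, a structural wall protein type, was higher in SPL13 (413.3 ± 71.6, SD, n = 3) than in mSPL13 (355.6 ± 17.4), against 270.0 in Col-0. Its probe set is of the type whose probes also match related transcripts, so its signal may hold several genes.

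Some higher members encode proteins of transcription and regulation. AT5G07580 is an AP2/ERF factor related to DEWAX (AT5G61590), a repressor of leaf wax synthesis. Its signals were 307.4, 383.9 and 549.9 in Col-0, 607.0, 589.3 and 577.9 in SPL13, and 625.5, 608.9 and 632.9 in mSPL13. The 6 transgenic arrays were within a narrow band, and the Col-0 arrays spread from well below it to just beneath it. DEWAX, singled out after its values were seen, was no member because its transgenic means of 1409 and 1805 were too far apart. Col-0 replicate 3 was again the highest Col-0 array, with 368.8, 335.7 and 1259.7 in Col-0 and a lowest transgenic signal of 1263.5. The RNA polymerase III factor-like AT5G24450 had means of 299.9 (Col-0), 408.6 (SPL13) and 491.7 (mSPL13), with Col-0 replicate 3 (377.3) just under SPL13 replicate 2 (386.0). The RING-type protein AT1G19310 had the lowest mSPL13 ratio of the named higher members, 1.302, against 1.42 in SPL13.

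A transporter and a small secreted protein were also among the higher members. The MATE-type transporter AT1G15180 had 294.3, 574.0 and 541.3 in Col-0, 658.1, 640.9 and 657.2 in SPL13, and 723.3, 806.3 and 760.1 in mSPL13. Here the Col-0 array that stood apart was replicate 1, and mSPL13 lay above SPL13 in every array. AT2G14900, of the gibberellin-regulated GASA family of small secreted proteins, was steady in Col-0 at 1175.7, 1134.0 and 1181.5. It had 1516.2, 1600.6 and 1494.6 in SPL13 and 1814.7, 1765.9 and 1345.0 in mSPL13, with a gap of 1.14-fold to mSPL13 replicate 3. AT5G10620, of a function not given here, had means of 171.9, 252.1 and 243.7 in Col-0, SPL13 and mSPL13. The thiol peptidase-like AT4G17486 had 569.9, 760.4 and 805.1, and the PLAC8-domain protein AT1G11380 had 256.6, 348.1 and 358.3.

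The remaining one-gene members are given by their ratios. On the higher side AT3G07565 and AT3G52070 had ratios to Col-0 of 1.42 and 1.32 in SPL13 and of 1.58 and 1.64 in mSPL13, and AT3G49490 and AT5G57000 were between 1.301 and 1.43 in both. On the lower side the Col-0 mean of AT1G19020 was 1.76 and 1.64 times those of SPL13 and mSPL13, and that of AT4G24700 was 1.56 and 1.49 times. AT3G19030, AT5G52070 (an Agenet-domain protein), AT1G34640, AT4G26860 (an alanine racemase-like protein) and AT1G19380 had Col-0 means 1.31 to 1.44 times the SPL13 mean and 1.32 to 1.63 times the mSPL13 mean.

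Some of the strongest members had no single gene name. The largest ratio of all higher members belonged to a probe set that pairs with several genes, with means of 992.9 (Col-0), 2104 (SPL13) and 2617 (mSPL13). Next came 260531_at, with 122.2, 125.6 and 157.6 in Col-0, 223.2, 218.1 and 281.3 in SPL13, and 266.0, 312.9 and 307.8 in mSPL13. The widest gap of all members, 1.43-fold, was that of 259553_x_at, a probe set of the kind whose probes can match related transcripts, with 659.5 to 884.2 in Col-0, 1266.0 to 1410.8 in SPL13 and 1522.3 to 1650.0 in mSPL13. Among the lower members 263046_at was the brightest, with 12310.0, 11169.8 and 10502.2 in Col-0, 4708.0, 8127.1 and 8326.6 in SPL13, and 9822.8, 8912.7 and 7009.0 in mSPL13. SPL13 replicate 1 was far below the other transgenic arrays at this probe set, and it is also the array with the lowest chloroplast-encoded transcripts. The next lowest signal was that of mSPL13 replicate 3, the array with the highest chloroplast-encoded transcripts (0.30). A link between this probe set and those transcripts was not tested. For 250558_at the Col-0 signals fanned out (610.6, 427.4 and 314.3) while the transgenics ranged from 202.9 to 302.1.

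The threshold cut through a continuous range. The named higher members just inside it, AT3G49490 and AT1G19310, had smaller ratios of 1.301 and 1.302, and just outside it lay AT5G01710 (1.295) and AT3G17750 (1.29). On the lower side AT5G50740 and AT1G19380 stood inside at 1.31, and AT3G17120 and AT5G25360 outside at 1.29. A further 201 higher and 125 lower probe sets met every criterion but the fold.

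**Figure D4:**
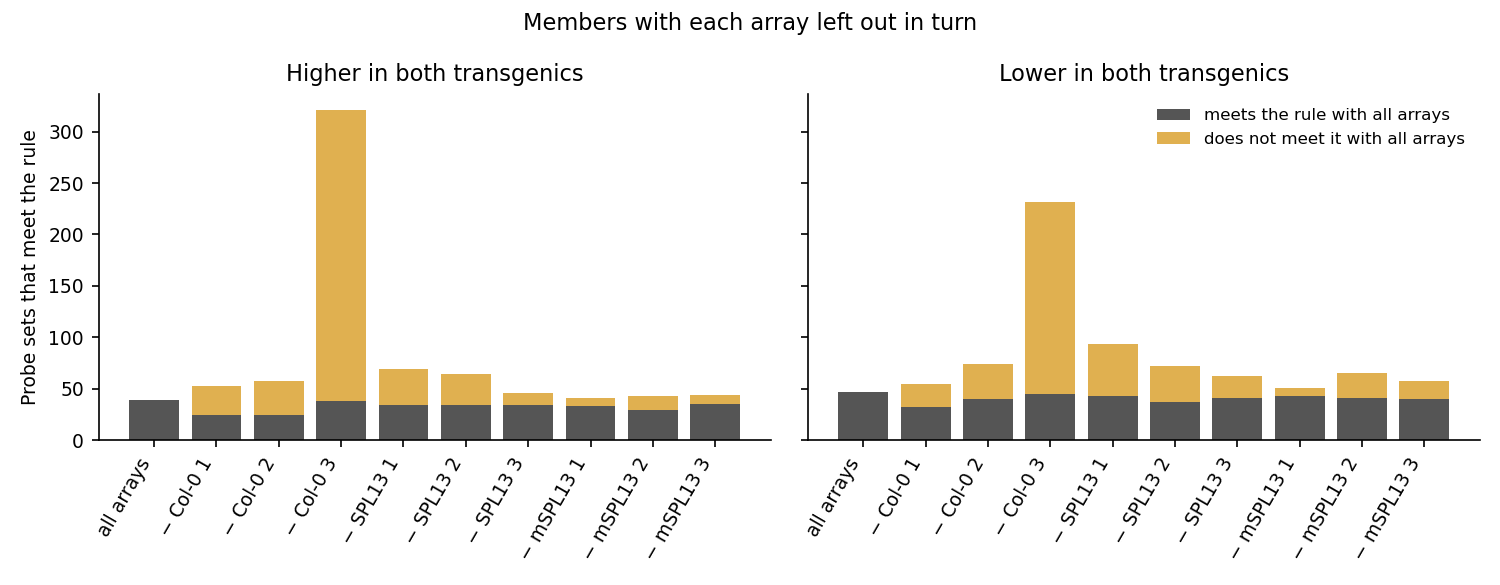
Number of probe sets that meet the rule with all arrays and with each array left out in turn, higher (left) and lower (right). The dark part counts probe sets that meet it with all arrays. Without Col-0 replicate 3 the totals are 321 and 232, and without any other array between 41 and 94.

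A linear model over all 9 arrays set the mean of both transgenic genotypes against Col-0. It called 53 of 13647 probe sets higher (0.388%) and 64 lower (0.469%) at an adjusted p under 0.05 (limma). All 86 members were among those tested. Of the members 5 higher and 8 lower were called, AT2G07180, AT1G20070, AFR, AT3G61490 and AT5G48540 among them. Since the rule used this contrast nothing is read from these counts. Without Col-0 replicate 3, 21 higher and 22 lower members were called, and 3.79% of all probe sets. Without Col-0 replicate 1 or 2 it was 1 in each direction, with 0.191% and 0.176% of all. With the replicate number as a block 9 higher and 15 lower members were called, and 1.21% of all. Of the 117 calls with all arrays, 100 had SPL13 and mSPL13 means over 25% apart.

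The gene lists drawn up for grouping matched genes by symbol or synonym, so they miss family members that carry only a locus name or another symbol, HYH, AT5G07580 and AT1G48660 among them. Of the 30 lists 25 had a tested gene, and matched in this way CYP84A4 was the only member in a list. Of the 143 list probe sets tested 4 rose and 3 fell (4.9%, against 0.857% in either direction over all probe sets). The lists were chosen with earlier results of these data known, so nothing is read from the higher share. The median log2 difference of the list probe sets was -0.05, against 0.01 over all. The other cytochromes P450 with the smallest p, CYP71B28, CYP71B29 and CYP71B23, had log2 differences of 0.42 ± 0.12, 0.47 ± 0.14 and 0.69 ± 0.23 (SE) and did not pass (limma adjusted p = 0.12, 0.147 and 0.179). In these lists the 14 cytochromes P450 tested had a median of 0.00.

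In each list gene that passed, the SPL13 mean lay between the Col-0 and mSPL13 means. In all but UGT84A1 it was nearer to the Col-0 mean. SPL13 alone was not tested against Col-0. Since the lists were chosen with earlier results of these data known, their counts, medians and adjusted p-values are a description only. Of 5 probe sets tested for sugar starvation and leucine breakdown, 3 rose, and their list median was 0.77. AKINBETA1, a subunit of the energy-sensing SnRK1 kinase, had means of 709.8 ± 139.2 for Col-0, 957.0 ± 88.1 for SPL13 and 1539 ± 157.1 for mSPL13 (SD, n = 3, limma adjusted p = 0.0116). GAT1_2.1, a glutamine amidotransferase (99.5, 144.7 and 381.3), and MCCA, a leucine breakdown enzyme (622.9, 788.7 and 1477), rose too, with limma adjusted p = 0.0111 and 0.0356. Of 12 expansins 1 rose, EXLB1 (284.4 ± 8.8, 343.6 ± 40.5 and 524.4 ± 10.9, limma adjusted p = 0.0322), with a list median of -0.30. EXPA15 (694.5 ± 147.3, 564.7 ± 78.3 and 384.6 ± 38.7) and EXPB3 (573.1 ± 190.7, 380.0 ± 24.4 and 282.5 ± 52.2) had lower means in both transgenics. Neither passed (limma adjusted p = 0.088 for each). Of 30 UDP-glycosyltransferases 2 fell, with a list median of -0.17. They were UGT84A1 (279.5 ± 99.3, 150.2 ± 36.8 and 100.6 ± 1.0, limma adjusted p = 0.0294) and UGT76C2 (894.8 ± 160.0, 799.3 ± 106.6 and 393.1 ± 18.8, limma adjusted p = 0.0322). Of 2 homeobox genes HAT2, an auxin-induced regulator, fell (631.9 ± 92.4, 531.7 ± 19.9 and 282.2 ± 40.4, limma adjusted p = 0.0198). In all of these the mSPL13 and SPL13 means were over 25% apart, so none met the rule. The calls of MCCA, EXLB1, UGT84A1, UGT76C2 and HAT2 were lost in 5 to 8 of the alternative fits each, and for each gene one of these was the fit without Col-0 replicate 2 (highest adjusted p = 0.139 to 0.217). The call of AKINBETA1 was lost without Col-0 replicate 1 (adjusted p = 0.0695), and that of GAT1_2.1 without Col-0 replicate 2 or with no filter on low signal (at most 0.0569).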

How the data were processed

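The authors deposited probe set intensity (linear MAS5 signal, GCOS), per the submitters' processing notes. Probe sets were named through GEO's platform table and the TAIR10.1 gene table: of 22810 probe sets, 13436 pair with 1 gene found there, 503 with several and 8730 with none. Left out were 64 control and 100 organelle-encoded probe sets; unnamed probe sets could not be checked for an organelle origin. The rule was applied to the signals as deposited. Protein families given for genes without a symbol are general Arabidopsis annotation, not from the files. The members and gene lists were chosen with earlier results of these data known.

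For the whole table, log2 of the signal plus 20.7 (its 20th percentile) was fitted with 1 mean per genotype (limma 3.58.1, R 4.3.3, eBayes with trend) over the 13647 probe sets above the 40th percentile of mean log2 signal (6.922), with Benjamini-Hochberg adjustment. Control probe sets were left out of this fit and organelle-encoded ones kept. On simulated data, with 13647 probe sets tested, the fit recovered 18%, 66%, 90% and 86% of probe sets changed 1.3-, 1.5-, 2- and 4-fold. Of its calls 3% were unchanged ones. Of the 50 changed at each fold, 47, 48, 49 and 44 passed the signal filter, and the rest count as not recovered. The simulated noise was independent between probe sets, without a position of a whole array like that of Col-0 replicate 3. The 3% therefore need not hold for the real arrays. The number of arrays limits the precision.

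Named first were the 12 one-gene members each way with the largest mean ratio, the 4 with the widest gap, list members, and the 2 nearest the threshold on each side; the other 17 one-gene members are added for completeness, outside that rule. List genes named were up to 3 with the smallest p, from lists that held a call or a member. Alternatives were quantile normalization, median centring, other thresholds, pseudocounts and filters, no trend, a replicate block, array weights, no organelle-encoded probe sets, and each array left out. Promoter motifs were not analysed here. Tables and figures used Python 3.11.15, numpy 2.4.6, pandas 2.3.3 and matplotlib 3.10.9.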

Additional observations from a re-analysis of the deposited data

How the results depend on the processing

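The counts of 39 higher and 47 lower members moved with the thresholds and with single arrays. They were 115 and 99 at a 1.2-fold threshold, 9 and 12 at 1.5-fold, and 105 and 130 when overlap of the groups was allowed. A floor of 100 gave 76 lower members and a floor of 400 gave 21 higher members. With 1 array left out the counts ranged from 41 to 321 and from 51 to 232. Fewer arrays make non-overlap easier to meet. Of the 39 higher members 25 to 38 were kept in these fits, and of the 47 lower members 32 to 45. Quantile normalization kept 34 and 42, and median centring kept 36 and 36. The 117 calls of the linear model became 48 with no filter on low signal, where 22746 probe sets were tested, and ranged from 24 (without Col-0 replicate 2) to 517 (without Col-0 replicate 3) with 1 array left out. The cause was not tested. The direction of the members' differences is fixed by the rule and says nothing of stability. Without Col-0 replicate 1 the log2 difference of AT1G15180 went from 0.62 to 0.33, that of AT5G10620 from 0.49 to 0.32 and that of AT5G57000 from 0.41 to 0.27. Without Col-0 replicate 2 that of AT1G23720 went from 0.50 to 0.28, that of AT1G34640 from -0.44 to -0.28 and that of AT4G26860 from -0.42 to -0.27. These were the 1-gene members that moved by over 1.5 times.

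Replicate numbers are shared by the genotypes, but the labels do not say that they mark a shared batch. Between genotypes, deviations from the group mean of same-numbered arrays correlated at -0.06 to 0.15, and those of differently numbered arrays at -0.16 to 0.20. With the replicate number as a block, 165 probe sets were called.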
